A study of Mus musculus with 26 samples.

Results

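The transcriptome described here is that of the WT-labelled RNA-seq libraries, which are 2 of the 4 RNA-seq libraries and 2 of the 26 samples in a series on Klf4 and early neural differentiation. They were chosen by their titles, which name neural progenitor cells (NPC), genotype WT and replicates 1 and 2. The cells were E14, a mouse embryonic stem cell (ESC) line, and RNA was taken after 12 days of neural induction. Before induction the line was kept on gelatin in medium with 15% serum, 10 ng/mL LIF, 1 µM PD0325901 (a MEK inhibitor) and 3 µM CHIR99021 (a GSK3 inhibitor), and the labels give the same culture for the Klf4-KO-labelled libraries of that day. Those KO-labelled libraries, also 2, appear below only where a comparison is drawn. The labels do not give the medium of the induction itself, and whether the KO is 1 clone is not stated. The series design calls the replicates biological, with 2 per condition.

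Gene counts totalled 37703866 in WT-labelled replicate 1 and 29835774 in replicate 2. Levels are reads of a gene per 1000000 gene counts (CPM), so each value is a share of a library's reads and is not corrected for transcript length. Values below are given as replicate 1 and replicate 2, in that order. A gene was called on at 5 CPM or more in both libraries (189 and 149 counts), silent below 0.5 CPM in both (18.9 and 14.9 counts), and low otherwise. A count of 0 allows up to 3 counts, or 0.0796 and 0.101 CPM, and covers counting error only. Over the 10073 gene rows that were on, the libraries differed by a median of 0.06 on the log2 scale, and 15 rows differed by more than 1.5-fold. Of 15823 genes with at least 20 counts, 26.5% differed by more than counting noise allows in 5%. This does not tell separate cultures from separate preparations of 1 culture. The libraries were counted as separate samples because the series design calls the replicates biological.

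The targeted gene goes against the labels. Klf4 (GRCm38.p6, chr4:55527137-55532475), a zinc-finger factor of the naive pluripotency network, had 0 counts in WT-labelled replicate 1 and 0 in replicate 2. The KO-labelled libraries had 80.6 and 76.1 CPM. The libraries are therefore named by their labels throughout, and which genotype the WT-labelled libraries come from cannot be told from the labels. Of the 17 genes Klf1 to Klf17, 13 were on, 1 was low and 3 were silent. Among all protein-coding genes 44.9% were on and 39.7% silent. Klf2, a partner of Klf4 in naive cells, had 314 and 296 CPM, and Klf5 had 116 and 112 CPM.

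Pluripotent cells of the naive type, like those of the preimplantation epiblast, depend on a small circuit of transcription factors that is fed by LIF and STAT3 and held by low ERK and high beta-catenin activity. During neural induction this circuit is normally shut, and factors such as Sox1 and Pax6, the filament gene Nes and the Notch target Hes5 come up in neural progenitors. Neurons later add Dcx, Tubb3 and synaptic genes. These are the programmes against which the libraries were read.

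The pluripotency programme was on in the WT-labelled libraries. Every one of the 14 genes listed as core pluripotency factors and cofactors was on, and 14 of 15 listed as naive factors, against 44.9% of all 21242 protein-coding genes. Klf4 was the silent one of the naive list. Nanog, a homeobox factor of the circuit, had 1058 and 1061 CPM. Pou5f1, which encodes OCT4, had 778 and 786 CPM, and its partner Sox2 had 505 and 491 CPM. Both libraries were high for all 3 genes, and they differed by less than 5% in each. Tfcp2l1, a naive factor downstream of LIF, had 948 and 945 CPM. Tbx3, a T-box factor that sustains naive cells, had 267 and 269.5 CPM. Esrrb, an orphan nuclear receptor and Nanog target, had 866 and 858 CPM. The genes with the largest read shares in the core list were Dppa5a, an RNA-binding protein of early embryos, at 2049 and 2089 CPM, and Trim28, a corepressor of retroviral elements, at 1897 and 1896 CPM. The lowest of the core list were Dppa4 at 69.5 and 65.9 CPM and Dppa2 at 82.4 and 83.5 CPM, both on. The median member of the core list stood at 541 CPM and of the naive list at 114 CPM, where the median protein-coding gene stood at 2.44 CPM.

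Genes of the epiblast state that follows naive pluripotency were mixed. Of 18 formative and primed genes 11 were on, 4 low and 3 silent. The de novo DNA methyltransferase Dnmt3b had 179.6 and 175 CPM and Dnmt3l, its cofactor, had 176 and 173 CPM. Nodal antagonist Lefty2 had 102 and 106 CPM. Otx2, which marks the exit from the naive state, was just above the threshold at 7.40 and 7.31 CPM. Fgf5, the classical gene of the primed epiblast, was silent at 0.398 and 0.235 CPM, and Pou3f1, a POU factor of the epiblast and early neural plate, was low at 1.11 and 0.201 CPM. Cer1 and Fgf8 had at most 2 counts in a library.

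**Figure D1:**
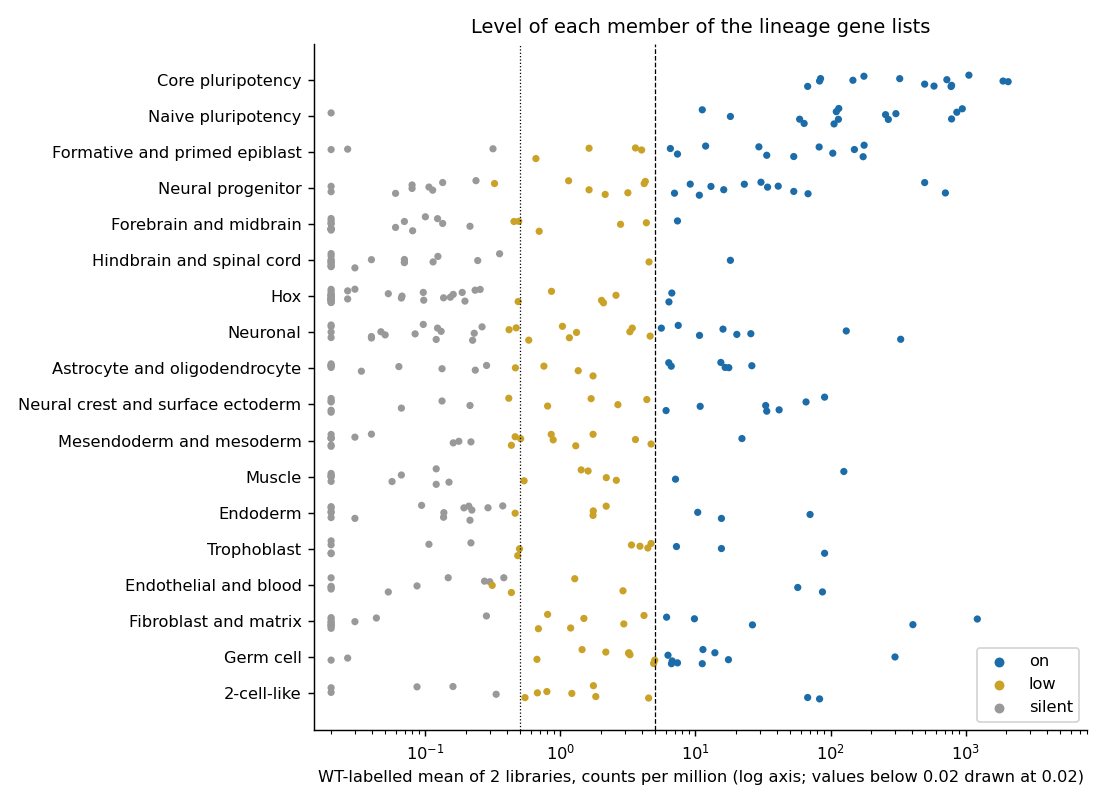
Each point is 1 gene of a lineage list, placed at its mean CPM over the 2 WT-labelled libraries on a log axis; the dashed line marks 5 CPM and the dotted line 0.5 CPM, and values below 0.02 are drawn at 0.02. All 14 core pluripotency genes and 14 of 15 naive genes lie right of the dashed line, whereas 1 of 22 forebrain and midbrain factors and 2 of 38 Hox genes do.

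The neural label was checked against its markers. Of 8 neural progenitor markers 1 was on, 1 was low and 6 were silent, against 39.7% silent among all protein-coding genes. Nes, a filament gene of neural progenitors, was on at 68.3 and 68.0 CPM. Sox1, the earliest neural-plate factor, was low at 2.81 and 1.47 CPM. Pax6, a factor of cortical progenitors, had 0.159 and 0 CPM, or 6 counts and 0. Hes5 and Fabp7, a fatty acid carrier of radial glia, had no count in either library. All 8 pluripotent markers were on. The libraries thus carry the label of neural progenitors while 6 of 8 progenitor markers were silent, and they are called WT-labelled libraries here, not progenitors. In bulk RNA, fewer cells of a type and less RNA per cell cannot be told apart.

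The wider list of 29 neural progenitor genes had 13 on, 7 low and 9 silent, and its share on (44.8%) was near that of all protein-coding genes. The members with the largest read shares are not confined to neural cells: Vim, a filament gene of many cell types, had 708 and 711 CPM and Sox2 is shared with the core list. Next came Nes and the zinc-finger factor Zic2 at 53.2 and 53.7 CPM. Regional factors of the nervous system were mostly silent. Of 22 forebrain and midbrain factors 16 were silent, 5 low and 1 on, and 9 had no count, among them Six3, Emx2 and Nkx2-1. The one on was Otx2, which is also an epiblast gene. Of 20 hindbrain and spinal cord factors 18 were silent, with no count for 8, including Olig2, Pax3 and Lhx1. Gbx2, the one on at 17.4 and 18.9 CPM, is a factor of the midbrain-hindbrain boundary and also a LIF-responsive naive factor. Hox genes, which set position along the body axis, were silent in 31 of 38. Hoxb9 at 6.42 and 6.94 CPM and Hoxc13 at 6.31 and 6.40 CPM were the ones on.

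Neuronal genes were split. Of 33 listed, 8 were on, 9 low and 16 silent. The share on was 24.2%, against 44.9% of protein-coding genes, and the share silent 48.5%, against 39.7%. With silent set below 0.1 CPM the shares silent were 21.2% and 30.0%, so the order depends on the threshold. Stmn2, a microtubule-destabilising protein of growth cones, had 339 and 323 CPM, and the beta-tubulin Tubb3 had 130.4 and 131 CPM. Both were high in both libraries. The neurofilament heavy chain Nefh had 20.1 and 20.3 CPM and Stmn3, a relative of Stmn2, had 26.2 and 25.2 CPM. Dcx, the microtubule protein of migrating neurons, had no count, nor had Slc17a6, a vesicular glutamate transporter, Chat, the enzyme of acetylcholine synthesis, or Myt1l, a neuronal repressor. The proneural factor Neurog2 had 0.0796 and 0 CPM and was silent. Glial genes had 6 of 20 on. Nfib, a nuclear factor with broad expression, stood at 26.6 and 25.6 CPM, and the astrocyte water channel Aqp4 had no count.

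**Figure D2:**
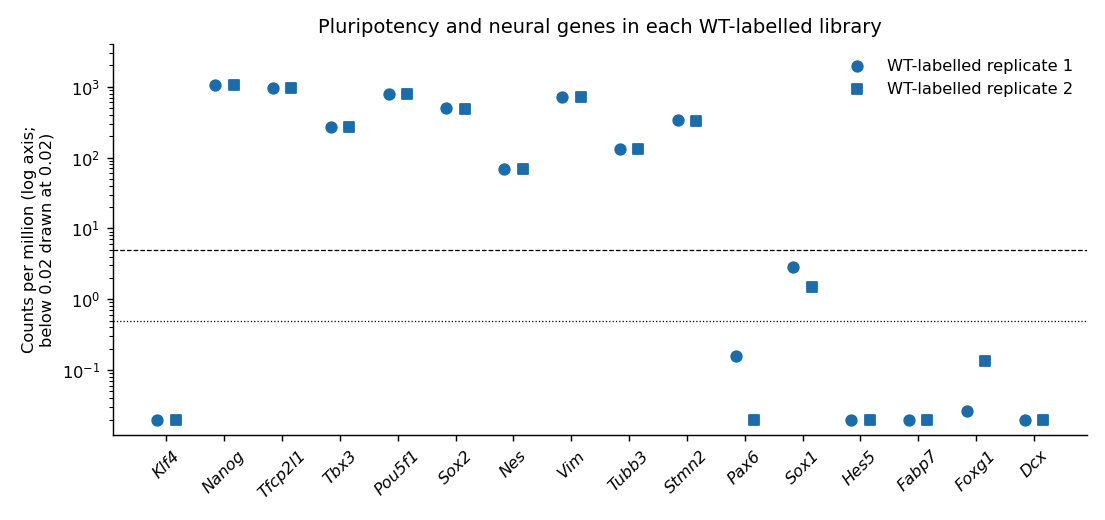
Points show CPM in WT-labelled replicate 1 (circles) and replicate 2 (squares) on a log axis, with the dashed line at 5 CPM, the dotted line at 0.5 CPM, and values below 0.02 drawn at 0.02. Nanog, Tfcp2l1, Tbx3, Pou5f1 and Sox2 lie above 250 CPM in both libraries, whereas Klf4, Hes5, Fabp7 and Dcx are at 0 counts in both.

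Markers of other lineages were mostly below the threshold. Mesendoderm and mesoderm, endoderm and trophoblast lists had 4.76%, 13.6% and 20% on, against 44.9% of protein-coding genes. Their shares silent were 52.4%, 68.2% and 40%, against 39.7%, so the trophoblast share was near that of all genes. With silent set below 0.1 CPM they were 38.1%, 27.3% and 26.7%, against 30.0%. Of 21 mesendoderm and mesoderm factors 1 was on, 9 low and 11 silent. That gene was Tcf15, a factor of somites that is also found in epiblast-bound ESCs, at 21.9 and 22.3 CPM. Eomes had 4.48 and 4.89 CPM and T, or brachyury, had 4.03 and 3.15 CPM, both low. All 4 endoderm markers (Sox17, Gata6, Foxa2 and Afp) and all 3 blood markers were silent, Afp and Ptprc with no count. Among 22 endoderm genes the 3 on were Lama1, a laminin chain, at 71.6 and 69.5 CPM, the collagen gene Col4a1 at 9.18 and 11.6 CPM and Cdx2 at 16.4 and 14.7 CPM. Cdx2 also counts among trophoblast and Wnt-responsive genes. The trophoblast list had 3 of 15 on, led by Tfap2c, an AP-2 factor shared with germ cells, at 89.0 and 91.7 CPM, and Elf5, Prl3d1 and Tpbpa had no count.

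Mesenchymal and contractile genes were silent somewhat more often than the 39.7% of all protein-coding genes. In the fibroblast and matrix list 11 of 22 (50%) were silent, and Postn, Lum, Dcn, Bgn, Prrx1, S100a4 and Col6a2 had no count. Fn1, which encodes fibronectin, had 1224 and 1222 CPM, and the matrix glycoprotein Sparc had 411 and 404 CPM. In the muscle list 10 of 17 (58.8%) were silent. Ttn, the giant sarcomere protein, stood at 127 and 124 CPM. Its transcript is very long, and read shares are not corrected for that. The actin family divided by isoform. Cytoplasmic Actb had 1482 and 1493 CPM and Actg1 had 1626 and 1679 CPM. The muscle isoforms Acta1, Actc1 and Actg2 had no count and Acta2 had 1 count in replicate 1 and 0 in replicate 2.

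Of 19 germ cell genes 9 were on, 8 low and 2 silent. The share on, 47.4%, compares with 44.9% of protein-coding genes and the share silent, 10.5%, with 39.7%. With on set at 1 CPM the shares on were 84.2% and 54.1%. Kit, the receptor for stem cell factor, had 304 and 297 CPM, and the RNA helicase Ddx4 had 17.6 and 17.5 CPM. Stra8, a retinoic-acid-responsive meiosis gene, was on at 6.44 and 6.07 CPM. Dppa3, a maternal factor that protects methylation in the zygote, had 11.2 and 11.2 CPM. Rhox5 and Asz1 were silent. Few genes of the 2-cell embryo were on: of 14 listed, 2 were on, 7 low and 5 silent. The share on was 14.3%, against 44.9% of protein-coding genes, while the share silent, 35.7%, was near their 39.7%. The 2 on, Dppa2 and Dppa4, also belong to the core list. Zscan4d, a zinc-finger gene that rare ESCs express in bursts, had 1.91 and 1.74 CPM and Zscan4c had 1.22 and 1.21 CPM. Zscan4 genes are close copies of each other, so how reads were split among them is uncertain.

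Signalling pathways were read by role, since the presence of receptors does not say that a pathway is active. Shares on are to be read against the 44.9% of all protein-coding genes. They were 80% for YAP and TEAD, 73.1% for LIF and STAT3, 64% for BMP, Nodal and TGF-beta and 62.2% for FGF and ERK. Hedgehog genes stood at 60%, Notch at 55.6%, Wnt at 54.2% and retinoic acid at 40.9%. In the LIF and STAT3 list 19 of 26 genes were on. The coreceptor Il6st (gp130) had 155 and 143 CPM and the receptor Lifr had 78.4 and 84.4 CPM. The transducer Stat3 had 124 and 124 CPM. Of 12 targets 9 were on, among them Socs3, the feedback inhibitor of the receptor, at 103 and 104 CPM, and the kinase gene Pim3 at 135 and 133 CPM. Klf4, itself a STAT3 target, was the silent one.

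For FGF and ERK, transducers were on while ligands, receptors and targets were divided. Of 11 ligands and receptors 4 were on (36.4%), 3 low and 4 silent. All 14 transducers of the list were on. The ligand Fgf4 had 257 and 255 CPM and the receptor Fgfr1 had 144 and 138 CPM. Of 20 feedback genes and targets 10 were on, 7 low and 3 silent. Etv5, an ETS factor, had 543 and 537 CPM. The immediate-early genes Egr1 and Fos had 0.239 and 0.402 CPM and 1.56 and 1.71 CPM, and Egr2 and Egr3 had no count. The feedback inhibitor Spry4 was low at 2.36 and 3.15 CPM and the ERK phosphatase gene Dusp4 at 1.35 and 1.21 CPM, whereas Spry2 had 49.0 and 47.6 CPM. High and low targets thus stood in the same 2 libraries, and no measure of ERK activity itself was used here.

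Wnt pathway genes had 32 of 59 on, a share not far from that of all genes. Beta-catenin, Ctnnb1, had 773 and 758 CPM. The frizzled receptor gene Fzd5 had 111 and 114 CPM and Fzd10 had 108 and 107 CPM. Of 11 targets on out of 19, Axin2, the feedback scaffold, had 45.2 and 50.5 CPM. The caudal homeobox gene Cdx1 had 46.8 and 51.5 CPM, Notum, a secreted Wnt deacylase, had 31.5 and 35.1 CPM, and Nkx1-2 had 40.0 and 36.6 CPM. Lgr5, a stem-cell receptor of many epithelia, was silent at 0.318 and 0.134 CPM, and Rspo3 had at most 2 counts in a library. The targets on and the targets silent were each alike in the libraries.

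In the BMP, Nodal and TGF-beta list 32 of 50 were on. Tdgf1, the Nodal coreceptor, had 586 and 583 CPM, the ligand gene Gdf3 had 166 and 164 CPM, and Nodal had 81.7 and 83.1 CPM. The BMP target Id1 had 8.99 and 8.45 CPM and Id3 had 23.8 and 26.1 CPM, and Id2 was low at 3.74 and 2.18 CPM. The BMP antagonist Nog was silent at 0.212 and 0.268 CPM, and Grem1 had no count. Notch receptors were on, with Notch3 at 63.1 and 60.0 CPM and Notch1 at 42.7 and 39.3 CPM, and the DNA-binding partner Rbpj had 223 and 223 CPM. Of the 6 Notch targets only Hes1 was on, at 32.9 and 35.5 CPM. Hey1 had 2.63 and 3.62 CPM, Nrarp had 1.06 and 1.61 CPM and Hey2 had 1.19 and 0.302 CPM, all low, and Hes5 and Heyl had no count.

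Hedgehog, retinoic acid and YAP genes completed the signalling lists. The hedgehog receptor Ptch1 had 80.4 and 77.5 CPM and the effector Gli2 had 99.2 and 93.4 CPM, while the ligands Shh, Ihh and Dhh were all silent. Of 22 retinoic acid genes 9 were on and 8 silent. The receptor Rarg had 123 and 120.5 CPM, whereas the retinoic acid-degrading enzyme Cyp26a1 had 1 count in replicate 1 and 0 in replicate 2 and Hoxb1, a direct target, had no count. Of 15 genes of YAP and TEAD 12 were on, with Tead1 at 284 and 275 CPM and Yap1 at 175 and 172 CPM. Their target Ankrd1 was silent.

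**Figure D3:**
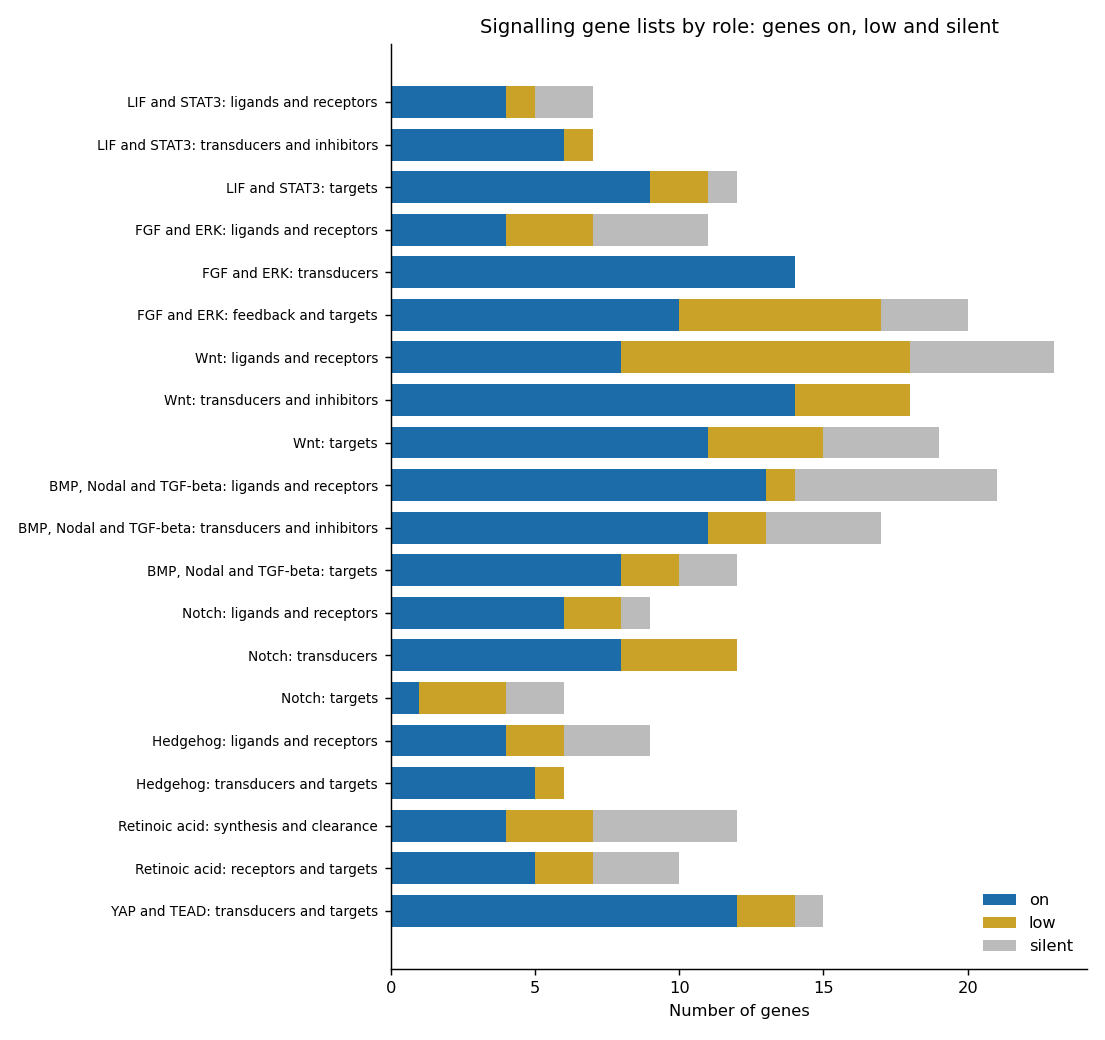
Bars count the genes on (blue), low (yellow) and silent (grey) in the WT-labelled libraries for each role of a signalling list. All 14 FGF and ERK transducers are on against 10 of 20 feedback genes and targets, and 8 of 12 Notch transducers are on against 1 of 6 targets.

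The largest read shares were those of single genes of translation, protein folding and energy metabolism. The 20 genes with the highest CPM took 7.85% and 7.94% of gene counts, the 100 highest 19.6% and 19.7%, and 50% of counts came from 820 and 814 genes. First was Eef1a1, which brings aminoacyl-tRNA to the ribosome, at 11193 and 11348 CPM, and then mt-Co1, a mitochondrially encoded subunit of cytochrome oxidase, at 10766 and 11104 CPM. Chaperones followed, with Hsp90ab1 at 5777 and 5858 CPM, Hsp90aa1 at 4508 and 4615 CPM and Hspa8 at 3069.9 and 3053 CPM. The rest of the 20 were the elongation factor Eef2, the ribosome-bound Rack1, the nucleolar genes Npm1 and Ncl, Ptma, the glycolytic Pkm and Eno1, Tubb5, the ATP synthase subunit Atp5b, mt-Nd1, mt-Cytb, and the ribosomal protein genes Rpl4, Rps2, Rpsa and Rpl8. Protein-coding ribosomal protein genes took 7.93% and 7.94% of counts, and 81 of 83 were on, with Rpl24 and Rpl3l low. Among long noncoding RNAs the largest read shares were those of Lncenc1, a transcript of naive ESCs, at 264 and 278 CPM and the nuclear RNA Malat1 at 243 and 240.3 CPM.

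Metabolic lists were on almost throughout. Across the 8 lists 85.0% to 100.0% of members were on, against 44.9% of protein-coding genes. All 23 genes of the TCA cycle and its entry were on, with a median of 158 CPM, and Acly, which turns citrate to acetyl-CoA, had 714 and 712 CPM. Glucose uptake and glycolysis had 25 of 27 on. Pkm, pyruvate kinase, had 3792 and 3757 CPM, Ldha, which makes lactate, had 2341 and 2329 CPM, and the neuronal-type glucose transporter gene Slc2a3 had 1551 and 1588 CPM. The muscle or liver forms Pgam2 and Pklr were low, at 2.28 and 1.44 CPM and 0.981 and 0.905 CPM. Tdh, threonine dehydrogenase, on which mouse ESCs rely for one-carbon units, had 586 and 586 CPM. In the same list of 22 genes only Mat1a, a liver enzyme, was silent.

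Synthesis genes were on in like measure. Of 19 nucleotide synthesis genes 18 were on, with the purine enzyme gene Paics at 783 and 788 CPM and the ribonucleotide reductase subunit Rrm2 at 477 and 486 CPM. The exception, Nme2, had 1.96 and 2.71 CPM. Of 20 cholesterol genes 19 were on, with Sqle at 196 and 195 CPM, and Fdps, a prenyl synthase in the middle of the pathway, was low at 2.84 and 2.88 CPM. In fatty acid metabolism 19 of 21 were on, led by Scd2 at 978 and 969 CPM and Fasn at 792 and 800.4 CPM. The muscle carnitine transferase Cpt1b and the nuclear receptor Ppara were silent. Redox and iron genes had 21 of 22 on, with Prdx1 at 1023 and 1010.3 CPM, the transferrin receptor Tfrc at 741 and 746 CPM, and the iron exporter Slc40a1 low at 0.477 and 0.972 CPM.

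Cell cycle and chromatin genes were also on. Of 36 cell cycle genes 33 were on. Top2a had 864 and 896 CPM and Mcm3, a helicase subunit, had 728 and 718 CPM. Cyclin D2, Ccnd2, was low at 0.530 and 0.469 CPM while Ccnd3 had 333 and 342 CPM and Ccnd1 had 183 and 185 CPM, and the inhibitor genes Cdkn2b and Cdkn2c were low. Of 9 DNA methylation genes 8 were on, including Uhrf1 at 752 and 743 CPM and Tet1 at 416 and 412 CPM. In the BAF complex, a nucleosome remodeller whose subunits switch in neurons, the stem-cell form Actl6a had 216 and 215 CPM and the neuronal form Actl6b had no count. Polycomb genes had 14 of 17 on, with Mtf2 at 400.4 and 412 CPM and Suz12 at 314 and 299.8 CPM. E-cadherin, Cdh1, an adhesion molecule of epithelia and ESCs, had 439 and 434 CPM and N-cadherin, Cdh2, had 6.87 and 7.11 CPM, so both were on.

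Gene starts differed in base composition between the classes. RefSeq promoter windows (GRCm38.p6, 250 bases before to 50 after a start) were matched for 17060 of 21242 protein-coding genes, in 20763 windows. The observed over expected ratio of CpG, which is low where methylated CpGs have decayed, had a median of 0.781 for genes on, 0.568 for low and 0.213 for silent ones. The median share of G and C bases was 61.3%, 58.7% and 48%, in the same order. The motif GGGCGG, the GC box read by SP and KLF factors, stood in 65.6% of windows of genes on and 19.8% of silent ones (46.9% of all; all motifs were searched on both strands). The ETS motif CCGGAAG stood in 19.6% and 2.64% (11.6% of all), and the TATA motif TATAAA in 6.23% and 21.8% (12.4% of all). The motif CCAAT did not vary in this way, at 38.5% and 38.2% (38.0% of all). Nor did CCACACCC, another motif read by KLF factors, at 3.53% and 3.58% (3.66% of all). The motif shares were not adjusted for the differences in G and C content. A match describes letters in a window and is not evidence of binding.

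Some lists followed that general pattern and others departed from it. TCA cycle genes, all on, had a median CpG ratio of 0.848 over 26 windows of 20 genes, and muscle genes, of which 10 of 17 were silent, had 0.239 over 17 windows of 14 genes. Core pluripotency genes, all on, had a median CpG ratio of 0.441 over 11 windows of 9 genes. Forebrain and midbrain factors, of which 16 of 22 were silent, had 0.757 over 22 windows of 16 genes, and hindbrain and spinal cord factors had 0.789 over 21 windows of 15 genes. These medians rest on few windows and carry no test.

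The 250 bases before the start are shown for 6 genes, chosen after their values were seen, on the gene's strand: pluripotency genes that were on (Pou5f1, Nanog, Tfcp2l1), Klf4 with 0 counts, and an actin that was on (Actg1) beside a muscle actin with none (Actc1). Capitals mark the GC box, the CCAAT motif and the TATA motif given above, on either strand.
Pou5f1: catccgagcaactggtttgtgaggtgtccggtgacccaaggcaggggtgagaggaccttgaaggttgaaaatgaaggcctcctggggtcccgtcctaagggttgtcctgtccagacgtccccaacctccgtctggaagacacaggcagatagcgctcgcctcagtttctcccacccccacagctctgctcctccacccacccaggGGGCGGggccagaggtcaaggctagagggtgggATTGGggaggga
Nanog: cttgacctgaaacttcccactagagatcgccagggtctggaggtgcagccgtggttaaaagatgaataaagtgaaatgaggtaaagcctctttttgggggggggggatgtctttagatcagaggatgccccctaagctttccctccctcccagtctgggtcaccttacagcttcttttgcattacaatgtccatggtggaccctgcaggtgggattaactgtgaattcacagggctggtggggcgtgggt
Tfcp2l1: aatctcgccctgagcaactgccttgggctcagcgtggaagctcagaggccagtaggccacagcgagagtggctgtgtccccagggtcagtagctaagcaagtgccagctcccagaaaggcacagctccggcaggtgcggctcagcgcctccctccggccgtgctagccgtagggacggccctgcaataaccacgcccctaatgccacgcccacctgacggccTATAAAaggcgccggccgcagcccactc
Klf4: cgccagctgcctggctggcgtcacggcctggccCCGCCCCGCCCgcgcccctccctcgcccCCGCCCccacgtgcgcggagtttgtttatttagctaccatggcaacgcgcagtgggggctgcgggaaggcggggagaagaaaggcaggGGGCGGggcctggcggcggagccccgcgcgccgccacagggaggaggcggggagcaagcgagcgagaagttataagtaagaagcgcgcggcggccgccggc
Actg1: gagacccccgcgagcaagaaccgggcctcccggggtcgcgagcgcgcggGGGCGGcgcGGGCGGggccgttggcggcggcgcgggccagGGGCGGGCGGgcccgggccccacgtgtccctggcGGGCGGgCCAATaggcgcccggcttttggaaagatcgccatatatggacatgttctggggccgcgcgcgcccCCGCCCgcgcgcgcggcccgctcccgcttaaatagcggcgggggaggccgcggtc
Actc1: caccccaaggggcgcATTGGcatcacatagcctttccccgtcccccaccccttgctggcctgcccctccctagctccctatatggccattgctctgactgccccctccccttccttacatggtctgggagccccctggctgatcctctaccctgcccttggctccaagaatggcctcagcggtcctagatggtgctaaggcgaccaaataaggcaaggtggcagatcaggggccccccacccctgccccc
The coordinates below are those of the bases shown, and each CpG ratio is that of the whole 300-base window. Pou5f1 (chr17:35505782-35506031, plus strand) had a CpG ratio of 0.374, with a GC box 45 bases and a CCAAT match 12 bases before the start. Nanog (chr6:122707239-122707488, plus strand) had 0.192 and none of the motifs. Tfcp2l1 (chr1:118627695-118627944, plus strand) had 0.656 and TATAAA 28 bases before the start. Klf4 (chr4:55532476-55532725, minus strand) had a CpG-rich window with 4 GC boxes, yet no RNA was counted. Its ratio of 0.974 was above the upper quartile of genes on, 0.926. Actg1 (chr11:120348496-120348745, minus strand) had 1.12 and 6 GC boxes, and Actc1 (chr2:114052876-114053125, minus strand) had 0.259 and a single CCAAT match. Of the muscle actins not shown, Acta1, with no count, had 0.435, with GC boxes 128 and 36 bases and a TATA match 7 bases before the start, and Acta2 had 0.270 and none of the motifs. Base composition alone did not sort these 6 genes into on and silent.

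**Figure D4:**
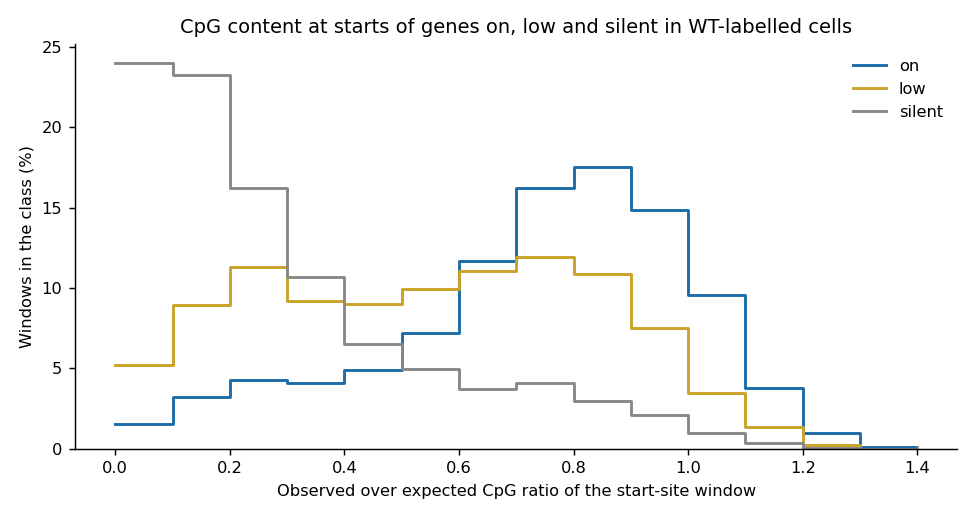
Lines show the percentage of promoter windows of each class that fall in each bin of the observed over expected CpG ratio (bins of 0.1). Windows of genes on peak near 0.8 to 0.9, those of silent genes lie mostly below 0.4, and low genes spread over both ranges, with medians of 0.781, 0.213 and 0.568.

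A second assay of the same label was set beside the RNA. HiChIP of RNA polymerase II pairs distant DNA fragments held together at sites the polymerase occupies, and its loops were deposited as 1 list per genotype label, without replicates. At a false discovery rate of at most 0.01 and at least 2 paired-end tags, the WT-labelled list kept 22148 of 143451 loops, with 13073 anchors covering 61.6 Mb. An anchor lay within 2500 bases of either gene end for 59.2% of genes on (5645 of 9535; exact 95% interval 58.2% to 60.2%), 31.2% of low genes (29.6% to 32.8%) and 6.78% of silent genes (6.26% to 7.34%). The share rose from 2.79% of genes with no count to 90.6% of genes above 500 CPM. The KO-labelled list, with 28990 anchors covering 115 Mb, touched 74.1% of genes that were on in the WT-labelled libraries and 20.3% of silent ones. Intervals cover counting error over genes only.

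**Figure D5:**
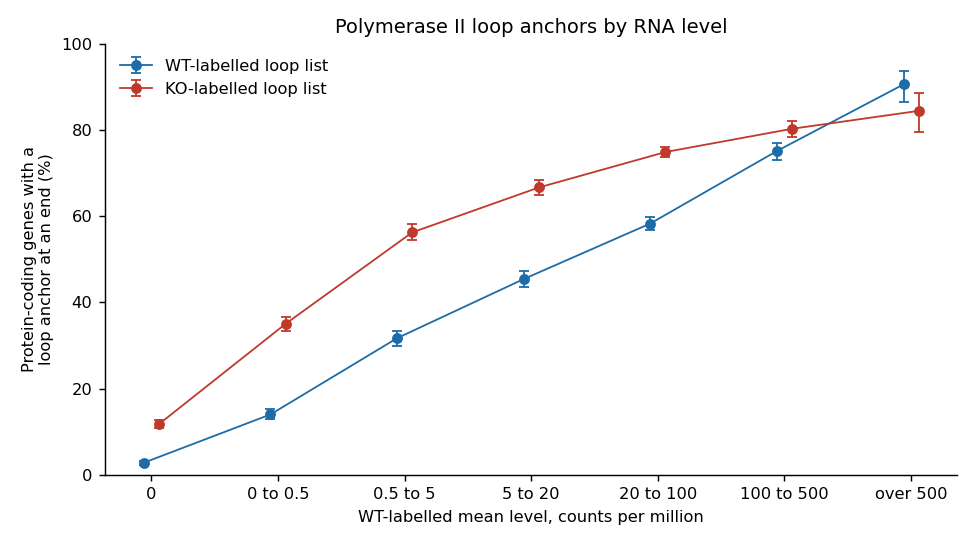
Points give the percentage of protein-coding genes with a loop anchor within 2500 bases of either gene end, by mean CPM in the WT-labelled libraries, for the WT-labelled (blue) and KO-labelled (red) loop lists; bars are exact 95% intervals over genes. In the WT-labelled list the share rises from 2.79% at 0 CPM to 90.6% above 500 CPM.

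Pluripotency genes carried many WT-labelled tags. An anchor was found for 13 of 14 core genes and 11 of 15 naive genes, against 34.1% of all protein-coding genes. That baseline includes silent genes. Of all protein-coding genes above 500 CPM 90.6% had an anchor, and of those at 100 to 500 CPM 75.2%. The median core and naive members stood at 541 and 114 CPM, so these shares are near those of genes of like level. Anchors at Nanog (RefSeq, chr6:122707489-122714633) held 498 tags, those at Tbx3 443, at Pou5f1 (chr17:35506032-35510777) 416 and at Tfcp2l1 235. The KO-labelled list had no anchor at Nanog or Pou5f1, 2 tags at Tbx3 and 9 at Tfcp2l1. It did have an anchor at 3 of 14 core genes and 7 of 15 naive genes. Il6ra, the receptor for interleukin 6, had 402 WT-labelled tags and 16.6 and 16.5 CPM. RNA and loops did not always go together. Esrrb, on in both libraries, had no WT-labelled anchor near its ends but 71 tags in the KO-labelled list. Nes and Tubb3 had no WT-labelled anchor either. Klf4, with no RNA counted, lay under an anchor (chr4:55526850-55535783) with 32 tags, where 145 of 5188 protein-coding genes with no count had an anchor.

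The KO-labelled libraries were used to see which levels belong to the WT label. Of 17273 genes tested, 6189 (35.8%) were higher and 6428 (37.2%) lower in WT-labelled libraries, so 73% were called (edgeR quasi-likelihood test, two-sided, Benjamini-Hochberg adjusted p below 0.05). With such a background, a call for 1 gene says little, and sizes are given. Among called genes 49.1% were higher with TMM scaling and 38.0% with library size alone, which moved the median log2 difference over all genes from -0.03 to -0.24. Of 14 core pluripotency genes 10 were higher and 4 lower, with a median log2 difference of 0.69. Of 15 naive genes 12 were higher and 3 lower, with a median of 1.04. Klf4, counted among the lower, passed the filter on low counts through the KO-labelled libraries alone. TCA cycle genes had 21 of 23 higher and none lower, with a median of 0.38. Other lists also differed. Nucleotide synthesis genes had 17 of 19 higher and none lower, with a median of 0.67. Of 18 formative and primed genes 3 were higher and 15 lower, with a median of -1.10. Some of the lower ones, Cer1 for example, passed the filter through the KO-labelled libraries alone.

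Single genes showed how far the labels stood apart. Tbx3 had 26.9 and 31.8 CPM in KO-labelled libraries and was higher in WT-labelled ones by 3.40 ± 0.053 (log2, SE; edgeR adjusted p = 3.96e-22). Tfcp2l1, at 145 and 145 CPM there, was higher by 2.92 ± 0.028 (edgeR adjusted p = 2.51e-29). Tubb3 was higher by 2.73 ± 0.057 (edgeR adjusted p = 8.91e-23), at 23.9 and 21.8 CPM. Otx2, in contrast, had 183 and 181 CPM and was lower in WT-labelled libraries by a log2 difference of -4.42 ± 0.061 (edgeR adjusted p = 2.76e-26). For these 4 genes the CPM ranges of the labels did not overlap. The share of all genes without overlap was not computed, and 73% of genes tested were called, so this adds little. Fn1, at 1465 and 1427 CPM there, did not pass after TMM scaling, with a log2 difference of -0.03 ± 0.023 (edgeR adjusted p = 0.21). By class, 9227 of the 9535 protein-coding genes on in WT-labelled libraries were also on in KO-labelled ones, and 19 were silent there, among them Cdx1, Cidea and Il6ra. Of the 8431 silent in WT-labelled libraries, 141 were on in KO-labelled ones, Klf4, Acta2 and Egr1 among them.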

How the data were processed

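The authors deposited raw read counts per gene symbol, 1 file per RNA-seq library. The submitters' processing notes name HISAT2 2.1.0, featureCounts 2.0.3 and DESeq2 1.18.1, without roles, and the build mm10. Each file ends in 5 rows of the kind another counter writes, so the counter is not settled. Its annotation and its strand setting were not given in the sources used here, and reads of overlapping genes cannot be told apart. Those 5 rows, which name no gene, were left out. In WT-labelled libraries they held reads without a feature (6.16% and 6.05%), ambiguous reads (4.41% and 4.37%) and reads without a unique alignment (7.69% and 7.67%). Of 52535 gene rows, 35103 matched a RefSeq symbol and 715 a RefSeq synonym (GRCm38.p6).

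CPM was computed from gene counts per library. The WT-labelled and KO-labelled libraries were compared with edgeR 4.0.16 (filterByExpr, TMM, glmQLFit with robust estimation, glmQLFTest), which was tested on simulated counts first. P-values were adjusted over all genes tested. The authors also deposited loop lists, in which each loop has a tag count and their own q-value, the false discovery rate. The submitters' processing notes also name HiC-Pro 2.11.1, Bowtie2 2.4.4 and MACS2 2.2.7.1, again without roles, and which tool called the loops was not given in the sources used here. Replicates appear pooled there. Loop anchors were matched to RefSeq coordinates of the same assembly.

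The libraries, the 41 gene lists (848 genes, some in several lists) and the tests were chosen with earlier results of these data known. Genes were named by a rule: the 20 with the highest mean CPM, up to 4 highest and 3 lowest per list, Klf4, Nanog, Tfcp2l1, Tbx3, Pou5f1, Sox2, Pax6, Sox1, Nes, Tubb3 and Vim, and the 5 genes on with the largest ratio between the WT-labelled libraries, with unnamed gene models left out. Other genes were named after their values were seen, and some genes that the rule names are not reported here. A planned ranking per coding kb was not run, since coding lengths were not used here. The ESC ChIP-seq samples were left out, as they hold neither RNA nor day 12 cells. Alternatives tried were other scalings, thresholds, filters and tests, single libraries and other loop settings.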

Additional observations from a re-analysis of the deposited data

How the results depend on the processing

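Counts of protein-coding genes on and silent stayed within 1.5 times of those reported under every alternative tried (TMM scaling, library sizes without mitochondrial and ribosomal protein genes, on at 1 or 20 CPM, silent below 0.1 or 1 CPM). With 1 library left out, genes on numbered 9651 to 9652 and genes silent 8723 to 8742. Across 41 lists, leaving out a library changed the number on by at most 2 members and the number silent by at most 3; on at 1 CPM changed the number on by up to 11 members, on at 20 CPM by up to 15, and silent below 0.1 CPM lowered silent counts by up to 12, so list counts depend on the threshold. At 0.1 CPM silent members fell from 9 to 3 for neural progenitor genes, 16 to 7 for neuronal, 31 to 19 for Hox, 18 to 11 for hindbrain and spinal cord and 16 to 10 for forebrain and midbrain genes, beside 8431 to 6377 for all protein-coding genes. Without mitochondrial genes the 20 and 100 highest genes took 7.04% and 18.5% of counts, and with 1 library 7.85% to 7.94% and 19.6% to 19.7%.

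For the WT-labelled against KO-labelled comparison, edgeR called 6189 genes higher and 6428 lower; counts higher ran from 4788 (library size alone) to 6329 and lower from 5781 to 7816 over all alternatives, with 6089 and 6282 by DESeq2. With 1 library left out they were 5878 to 6038 higher and 5781 to 6235 lower, where the lone library is assumed to vary like the other group. With the replicate number as a block, 6112 were higher and 6298 lower; same-numbered libraries did not deviate together (r = 0.02 across 17273 genes, 2 pairs).

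Loop shares depended on the list and window. Genes on and genes silent had an anchor in 91.7% and 12.6% with all loops, 29.6% and 3.20% with 4 or more tags, 56.9% and 5.37% within 1000 bases, and 63.1% (on) with anchors anywhere on the gene. The KO-labelled list gave 74.1% and 20.3%. An alternative chosen after seeing the data, 2500 bases around the RefSeq start, gave 56.2% and 3.84%. Genes on exceeded silent genes in all of these. Depth limits what silent means: a gene with 0 counts could still stand at up to 0.0796 and 0.101 CPM.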

Other observations

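Mitochondrially encoded genes fell into separate ranges. Per kb of their RefSeq span (these genes have no introns, so levels can be compared per length), 7 genes had 633 to 7187 CPM per kb, with mt-Co1 at 6968 and 7187. The 6 genes of 1 contiguous stretch of the mitochondrial genome (MT, 7013 to 10173: mt-Co2, mt-Atp8, mt-Atp6, mt-Co3, mt-Nd3 and mt-Nd4l) had 0.493 to 74.8 CPM per kb. The KO-labelled libraries showed the same division. The pseudogene row Gm10925 (chromosome 1, 24613971 to 24614651), which RefSeq lists with mt-Atp6 among its synonyms, had 16.2 and 27.2 CPM beside 14.7 and 21.7 CPM for mt-Atp6. Its part in the low levels was not tested.

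Among genes on, those that differed most between the WT-labelled libraries included unnamed gene models, which the naming rule leaves out: Gm29216 had 7.11 and 17.2 CPM, Gm28661 had 20.1 and 39.7 CPM, and Gm10925 is given above. Of the named genes, Lsm4, a component of the RNA decay and splicing machinery, had 48.3 CPM in replicate 1 and 112 CPM in replicate 2, and the KO-labelled libraries also differed, at 101 and 53.9 CPM. Trim16 had 9.55 and 5.20 CPM, Rnaset2a had 7.08 and 12.9 CPM, and the pseudogene Rpl19-ps11 had 5.62 and 9.72 CPM. The gene mt-Co3 of the stretch above was the fifth of the named genes. Summed pluripotent markers were 7075 and 7084 CPM in these libraries, and summed neural progenitor markers 71.7 and 69.5 CPM.

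Some genes were low amid lists that were on. Fdps had 2.84 and 2.88 CPM, beside 2.51 and 1.98 CPM in the KO-labelled libraries, and Nme2 had 1.96 and 2.71 CPM. The ribosomal protein gene Rpl24 had 1.64 and 1.71 CPM, beside 1.63 and 1.02 CPM in the KO-labelled libraries. Reads without a unique alignment made up 7.69% and 7.67% of the totals, and whether reads of these genes are among them was not tested.

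H19, an imprinted long noncoding RNA, had 8.09 and 8.04 CPM in the WT-labelled libraries and 483 and 508 CPM in the KO-labelled ones. Among genes on in the WT-labelled libraries and silent in the KO-labelled ones were also Accsl, at 34.4 and 31.8 CPM, and Myo1f, at 28.7 and 30.7 CPM.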
